A study of Mus musculus with 4 samples.

Results

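The triggering receptors expressed on myeloid cells and their adaptors were followed across cell types, Angptl4 genotypes and days after skin wounding. The set held 7 of the 31053 genes counted: the receptor genes Trem1, Trem2, Trem3, Treml2 and Treml4, the adaptor gene Tyrobp, and the related adaptor gene Hcst. They were picked by symbol, and Trem2 drew attention because its level differed between genotypes on both days. The genotype values below are therefore a description of what chose the set. The material was immune cells (CD45+ and negative for propidium iodide) sorted from 3 mm excisional skin wounds and profiled by droplet single-cell RNA sequencing. Wild-type C57BL6/J mice (Angptl4+/+, called WT below) and mice lacking Angptl4 in every cell (Angptl4-/-, called KO below) were compared at 1 and 5 days postwounding (dpw), with no other agent given. The mice were male and 8 weeks old by the study's methods, which give separate suppliers for the genotypes. The number of mice behind a library was not given in the sources used here. Each of the 4 combinations of genotype and day was 1 library. Without replicates no test between conditions was possible, no p-value is given, and genotype and library cannot be told apart.

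Trem receptors are surface proteins of myeloid cells, and Trem1, Trem2 and Trem3 have almost no signalling tail of their own. Trem1, Trem2 and Trem3 pair with Tyrobp (also called DAP12), whose immunoreceptor tyrosine-based activation motif (ITAM) recruits the kinase Syk, while Hcst (DAP10) carries a motif that recruits phosphoinositide 3-kinase and serves the receptor Klrk1 (NKG2D) in lymphocytes. Trem1 is known as an amplifier of inflammatory signalling in neutrophils and monocytes. Trem2 is known from macrophages, microglia and osteoclasts, where it binds lipids and apolipoproteins and takes part in phagocytosis and lipid handling.

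In the mouse assembly GRCm38, the 5 receptor genes lie in 1 cluster on the plus strand of chromosome 17. Their order is Trem1 (ENSMUSG00000042265, 48232768 to 48246924), Trem3 (ENSMUSG00000041754, 48247777 to 48258841), Treml4 (ENSMUSG00000051682, 48264295 to 48275360), Treml2 (ENSMUSG00000071068, 48299498 to 48312533) and Trem2 (ENSMUSG00000023992, 48346401 to 48354147). From Trem1 to Treml1, the last gene of the group, the cluster spans 134 kb. Angptl4 is on the same chromosome, from 33773750 to 33781830, and Trem2 starts 14.6 Mb beyond its end. Tyrobp (ENSMUSG00000030579, 30413760 to 30417585, plus strand) and Hcst (ENSMUSG00000064109, 30417712 to 30419854, minus strand) face each other on chromosome 7, with 126 bases between their 3′ ends. Only 0.368% of the 31-base words of Trem1 transcripts, and 0.102% of those of Treml2, occurred in the transcripts of another gene. No 31-base word of the other 5 members did.

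RefSeq start sites (GRCm38.p6) were at hand for Trem1, Trem2, Treml4 and Hcst. The 250 bases before the start are printed for Trem2, which was higher in macrophage-like than in neutrophil-like cells of each library, and for Trem1, which was higher in neutrophil-like cells. Capitals mark the motif AGGAAGT, bound by PU.1 and other ETS factors, on either strand, and the AP-1 motif TGANTCA, which reads the same on both strands. Matches to the 2 motifs did not overlap.
Trem2 (chr17:48346151-48346400, plus strand): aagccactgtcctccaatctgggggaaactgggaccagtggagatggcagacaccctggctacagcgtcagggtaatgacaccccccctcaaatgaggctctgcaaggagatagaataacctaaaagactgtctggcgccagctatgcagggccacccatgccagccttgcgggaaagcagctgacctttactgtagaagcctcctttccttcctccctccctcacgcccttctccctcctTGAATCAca
Trem1 (chr17:48232489-48232738, plus strand): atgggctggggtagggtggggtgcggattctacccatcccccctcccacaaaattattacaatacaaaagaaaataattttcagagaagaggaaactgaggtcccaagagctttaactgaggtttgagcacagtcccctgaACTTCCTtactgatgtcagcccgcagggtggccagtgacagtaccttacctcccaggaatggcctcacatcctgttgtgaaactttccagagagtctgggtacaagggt
The Trem2 window held 1 match to TGANTCA, starting at position -9, and none to AGGAAGT. The Trem1 window held 1 match to AGGAAGT, on the minus strand from position -109, and none to TGANTCA. Among 32851 promoter windows of 250 bases, 7.69% held AGGAAGT and 6.75% held TGANTCA. A match describes these letters only.

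The deposited unique molecular identifiers (UMIs, 1 for each captured RNA molecule) numbered 32962595 at 1 dpw in WT wounds, and 29746688 at 5 dpw. They numbered 27472052 and 26981596 in KO wounds. Of 20069 barcodes 19827 passed the filter, 4738 to 5346 per library, with a median of 3736 to 4976 UMIs per cell. Angptl4 had 47 and 78 UMIs in the WT libraries and 0 in both KO libraries. Cells were clustered without the 7 genes and named from marker lists. Neutrophil-like cells (6 clusters) were 54.5 to 77.1% of a library, and the other classes were B cell-like, NK cell/T cell-like (lymphocytes in 1 cluster), dendritic cell-like, macrophage-like and monocyte-like. A monocyte/macrophage class held 6 sub-clusters and 725 to 1483 cells per library. Of these, 4 were macrophage-like, 1 was monocyte-like, and 1, led by Vcan and Dmkn, had a monocyte marker among its leading genes and stayed in the joint class only. A seventh sub-cluster of 730 cells led by the mast cell and basophil genes Mcpt8 and Cpa3, with a median of 1778 UMIs, was left unnamed and out of the class. Only 96 cells carried a barcode found in more than 1 library.

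The level of a gene in a class is the sum of its UMIs divided by the class total and scaled to 1000000 (CPM), given with an exact Poisson 95% interval. Ratios are log2 ratios of CPM with exact conditional binomial 95% intervals. Shares of cells have exact Clopper-Pearson 95% intervals, and all of these cover counting error only. These are 3′ tag counts, not divided by gene length, so each gene is compared only with itself.

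Trem2 was a gene of macrophages in these wounds. Macrophage-like cells had 201 CPM (190.2 to 213) at 1 dpw in WT wounds, and 419 CPM (406 to 432) at 5 dpw. In KO wounds they had 89.8 CPM (80.4 to 99.9) and 229 CPM (216 to 242). The KO library was the lower of the pair on both days and the 5 dpw library the higher in both genotypes, with no overlap of intervals. Monocyte-like cells had 137, 86.8, 90.0 and 57.3 CPM in WT wounds at 1 and 5 dpw and in KO wounds at 1 and 5 dpw. At 1 dpw in KO wounds their interval overlapped that of macrophage-like cells. Among monocyte-like cells the intervals of WT at 5 dpw (71.7 to 104) and KO at 1 dpw (76.8 to 105) overlapped. Dendritic cell-like cells had 6.90 to 12.6 CPM and NK cell/T cell-like cells 1.67 to 6.92 CPM, and the intervals of these neighbours in the order overlapped in all 4 libraries. No Trem2 UMI was seen in the 55 B cell-like cells, where 3 UMIs would have been 26.8 to 351 CPM in a library. The unnamed sub-cluster led by Mcpt8 and Cpa3 had 73.4 to 241 CPM of Trem2 and held 2.13 to 6.27% of its UMIs.

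Neutrophil-like cells had 0.655 to 3.59 CPM of Trem2, at least 104-fold less than macrophage-like cells of the same library. A Trem2 UMI was found in 0.324 to 1.11% of them (median depth 3218 to 4683 UMIs) against 34.1 to 76.4% of macrophage-like cells (6536 to 11971 UMIs). Doublets, which were kept, and RNA set free from lysed cells can each give such a trace, and the part of neither was tested. In neutrophil-like cells Trem2 stood at 0.730 to 0.962% of its macrophage level. The 7 macrophage genes C1qa, C1qb, C1qc, Ms4a7, Mrc1, Adgre1 and Csf1r stood at 0.0770 to 10.4% of theirs, with medians of 0.155 to 0.473%. Trem2 was above the median of these genes and below the highest of them, and no expression in neutrophils is read from it. In monocyte-like cells Trem2 stood at 20.7 to 100.3% of the macrophage level, while the median of the same 7 genes was 2.80 to 5.73%. Trem2 was above that median in each library. The highest of these genes, Adgre1 or Csf1r, stood at 82.8 to 98.4%, and Trem2 was above it only in KO wounds at 1 dpw. A gene at so like a level in both classes sets no limit for free macrophage RNA, and the part of such RNA was not tested.

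**Figure D1:**
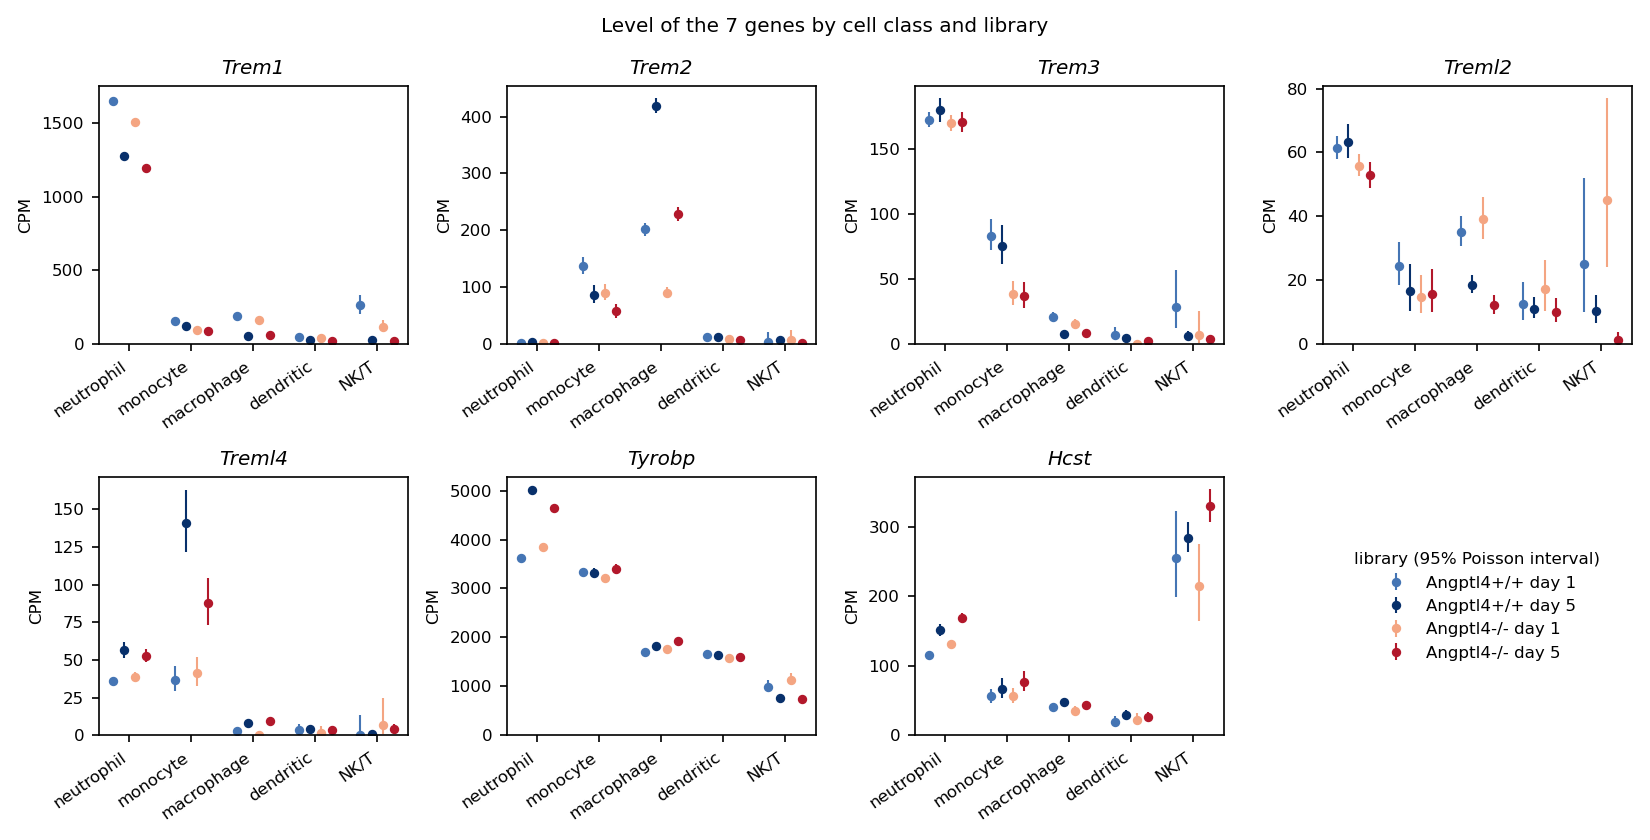
Level (CPM, linear axes from 0) of the 7 genes in 5 cell classes, with 1 point per library and exact Poisson 95% intervals. Trem1 and Trem3 were highest in neutrophil-like cells, Trem2 in macrophage-like cells except in KO wounds at 1 dpw, where monocyte-like cells had 90.0 CPM and macrophage-like cells 89.8 CPM, Hcst in NK cell/T cell-like cells, and Tyrobp was present in every class shown.

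Across the monocyte/macrophage class, Trem2 had 175 CPM (167 to 184) in WT and 85.4 CPM (78.7 to 92.5) in KO wounds at 1 dpw. At 5 dpw the values were 354 CPM (344 to 364) and 176 CPM (167 to 185). The log2 ratio of KO to WT was -1.04 (-1.17 to -0.90) at 1 dpw and -1.01 (-1.10 to -0.93) at 5 dpw. Counted from the lowest ratio, Trem2 was number 30 of 8345 genes with at least 100 UMIs in the 2 libraries at 1 dpw and number 45 of 8997 at 5 dpw. At a log2 ratio of at least 0.5 in size, 2 of the 7 members were lower in KO wounds at 1 dpw, Trem2 and Trem3, against 2.86% of all genes tested. Trem2 and Treml2 were the 2 lower at 5 dpw, against 4.38% of all genes. After each cell was thinned to 1000 UMIs, the Trem3 ratio at 1 dpw turned from -0.71 to 0.21 and the Treml2 ratio at 5 dpw from -0.69 to 0.32, so the direction of these 2 is not settled. None of the 7 was higher on either day, against 2.36% and 2.35% of all genes. Since the genotype contrast chose the set, nothing is read from these counts.

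Between days, Trem2 and Treml4 were higher at 5 dpw in the monocyte/macrophage class of both genotypes, and Trem1, Trem3 and Treml2 were lower. The 2 higher of 7 stood against 14.2% of 9043 genes tested in WT wounds and 10.4% of 8278 in KO wounds. The 3 lower stood against 9.51% and 9.78%. The median ratio of the members was -0.02 in WT and 0.03 in KO wounds, beside 0.07 and 0.02 over all genes. In neutrophil-like cells 6 of the 7 members had at least 100 UMIs in each pair of libraries, all but Trem2. None of the 6 was past the fold between genotypes, against 1.39% of genes higher and 5.77% lower at 1 dpw and 2.57% higher and 6.03% lower at 5 dpw. Between days only Treml4 in WT wounds was past it, on the higher side with 58.8% of all genes, and none was lower, against 5.57%. In KO neutrophils no member was past it, against 60.8% higher and 4.95% lower. The median day ratio of all genes in neutrophils was 0.65 in WT and 0.68 in KO wounds, so that a member with a ratio of 0 lay below most genes there. At 1 dpw the 8 neutrophil markers held a larger part of all neutrophil UMIs, with a summed 199940 CPM in WT and 216494 CPM in KO wounds, than at 5 dpw, with 106459 and 107771 CPM.

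**Figure D2:**
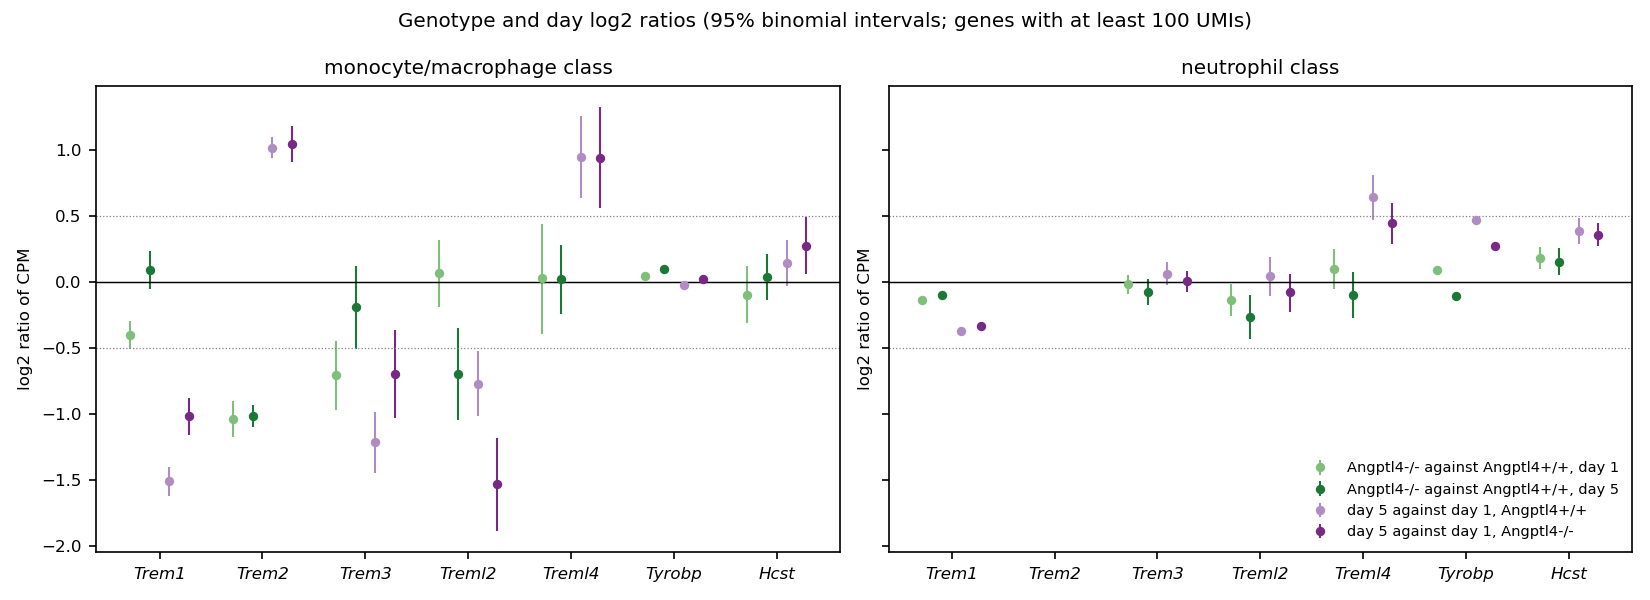
Log2 ratios of CPM between genotypes and between days for the 7 genes, in the monocyte/macrophage class (left) and in neutrophil-like cells (right), with exact 95% intervals and dotted lines at 0.5 and -0.5. Only genes with at least 100 UMIs in the 2 libraries are drawn, and Trem2, at -1.04 and -1.01 in the left panel, was the single member past -0.5 between genotypes on both days.

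The lower Trem2 of KO wounds was found in each of the 6 sub-clusters on both days. Sub-cluster ratios with at least 100 UMIs ran from -1.50 to -0.61 at 1 dpw (5 sub-clusters) and from -1.54 to -0.60 at 5 dpw (6 sub-clusters). The highest levels were in macrophages led by Cbr2, Folr2 and the complement gene C1qa. They had 331 and 502 CPM in WT wounds at 1 and 5 dpw, and 171 and 327 CPM in KO wounds. Macrophages led by Mmp12, Ptges and Arg1 had 144 and 444 CPM in WT and 65.5 and 152 CPM in KO wounds, and their ratio of -1.54 (-1.81 to -1.29) at 5 dpw was the lowest. Macrophages with interferon-induced genes (Cxcl10, Ifit2) had 194 and 428 CPM in WT and 68.6 and 254 CPM in KO wounds. In each of these 3 sub-clusters the KO library was below the WT library of the same day, with no overlap of intervals. Cells led by Vcan and Dmkn had 139 and 259 CPM in WT and 69.2 and 107 CPM in KO wounds. Macrophages led by Retnla and Mgl2 had 150.3, 123, 65.7 and 71.9 CPM in the same order, from 26 to 93 cells per library. Weighted by the sub-clusters' cell numbers in the 2 libraries, the mean ratio was -1.11 at 1 dpw and -0.95 at 5 dpw. Within the macrophage-like cells the Mmp12 and interferon sub-clusters held most cells at 1 dpw and the Cbr2 sub-cluster was the largest at 5 dpw, in both genotypes.

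Counts per macrophage-like cell showed the order seen by CPM. No Trem2 UMI was found in 43.1% of 763 macrophage-like cells of WT and 65.9% of 516 of KO wounds at 1 dpw, and in 23.6% of 1080 and 35.7% of 440 at 5 dpw. At least 3 UMIs were found in 20.1%, 6.78%, 48.1% and 39.1% of them. Depth differed between these groups, with medians of 7480, 6536, 8423 and 11971 UMIs per cell. After each cell was thinned to 1000 UMIs, 16.1% (13.6 to 18.9) of WT and 8.54% (6.28 to 11.3) of KO macrophage-like cells had a Trem2 UMI at 1 dpw. At 5 dpw 32.7% (29.9 to 35.6) and 19.1% (15.6 to 23.1) had one. The intervals of the genotypes did not overlap on either day.

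From 1 to 5 dpw the Trem2 ratio in the monocyte/macrophage class was 1.02 (0.94 to 1.09) in WT and 1.04 (0.90 to 1.18) in KO wounds. Sub-clusters went separate ways. The monocyte-like cells, led by Ace and Prtn3, were lower at 5 dpw, with a ratio of -0.66 (-0.98 to -0.35) in WT and -0.65 (-1.05 to -0.26) in KO wounds. In Retnla cells the WT ratio was -0.29 (-0.77 to 0.22). The other 4 sub-clusters were past the fold on the higher side in both genotypes, up to 1.63 (1.44 to 1.82) in Mmp12 cells of WT and 1.89 (1.58 to 2.20) in interferon cells of KO wounds. At 1 dpw monocyte-like cells held 16.2% of all Trem2 UMIs in WT and 24.6% in KO wounds, and at 5 dpw 2.24% and 5.12%.

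**Figure D3:**
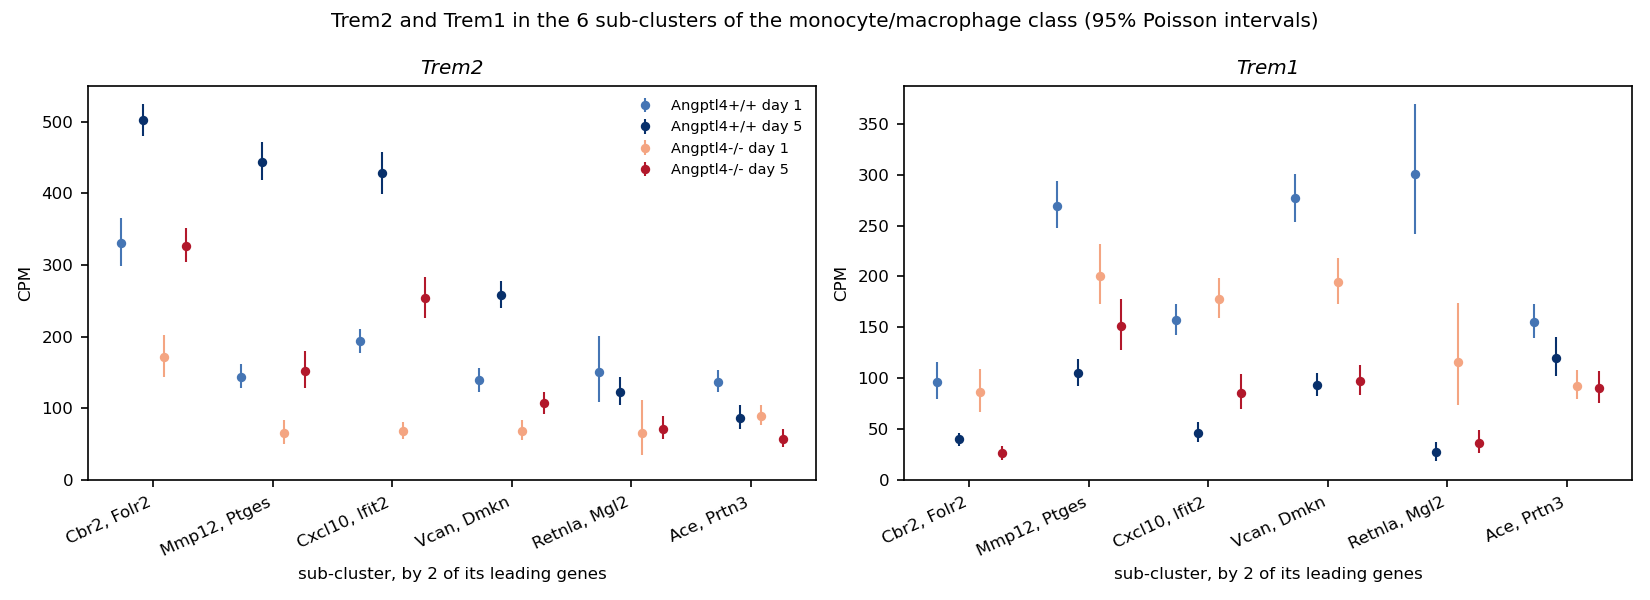
Trem2 (left) and Trem1 (right) levels in CPM on axes from 0 in the 6 sub-clusters of the monocyte/macrophage class, named by 2 leading genes, with 1 point per library and exact Poisson 95% intervals. For Trem2 the Angptl4-/- points are below the Angptl4+/+ points of the same day in all 6 sub-clusters, while for Trem1 the 1 dpw points are the higher ones in both genotypes, with overlapping intervals in Ace cells and in Mmp12 cells of KO wounds.

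Trem1 was a gene of neutrophils, which held 89.8 to 94.97% of its UMIs. The unnamed sub-cluster led by Mcpt8 and Cpa3 had 166 to 741 CPM of Trem1 and held 0.407 to 1.99% of its UMIs. Neutrophil-like cells had 1654 CPM (1636 to 1672) at 1 dpw in WT wounds, and 1281 CPM (1257 to 1305) at 5 dpw. In KO wounds they had 1508 CPM (1491 to 1526) and 1194 CPM (1175 to 1214). Both 5 dpw libraries were below both 1 dpw libraries. The day ratio was -0.37 (-0.40 to -0.34) in WT and -0.34 (-0.37 to -0.31) in KO wounds, while the median of all genes was 0.65 and 0.68. The genotype ratio was -0.13 (-0.16 to -0.11) at 1 dpw and -0.10 (-0.14 to -0.07) at 5 dpw, beside a median of all genes of -0.09 and -0.07. After thinning to 1000 UMIs, 69.1%, 58.3%, 67.0% and 58.0% of neutrophil-like cells in WT wounds at 1 and 5 dpw and in KO wounds at 1 and 5 dpw had a Trem1 UMI.

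The 6 neutrophil clusters differed more in Trem1 than the genotypes did. The cluster led by Csf1 and Acot1 had 619 to 798 CPM over the 4 libraries. The cluster led by the cytokine genes Csf3 and Il1a had 1110.4 to 1293 CPM. The other 4 clusters, among them the one led by hemoglobin genes and Ngp and the one led by interferon-induced genes, had 1203 to 1979.6 CPM. Genotype ratios within clusters ran from -0.21 to 0.05 at 1 dpw and from -0.23 to 0.08 at 5 dpw, lower in 4 and higher in 2 of the 6 clusters on both days. Day ratios ran from -0.43 to -0.00062 in WT wounds and from -0.41 to -0.09 in KO wounds. The cluster led by F3 and Igf1r had 1815 CPM at 1 dpw and 1814 CPM at 5 dpw in WT wounds.

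**Figure D4:**
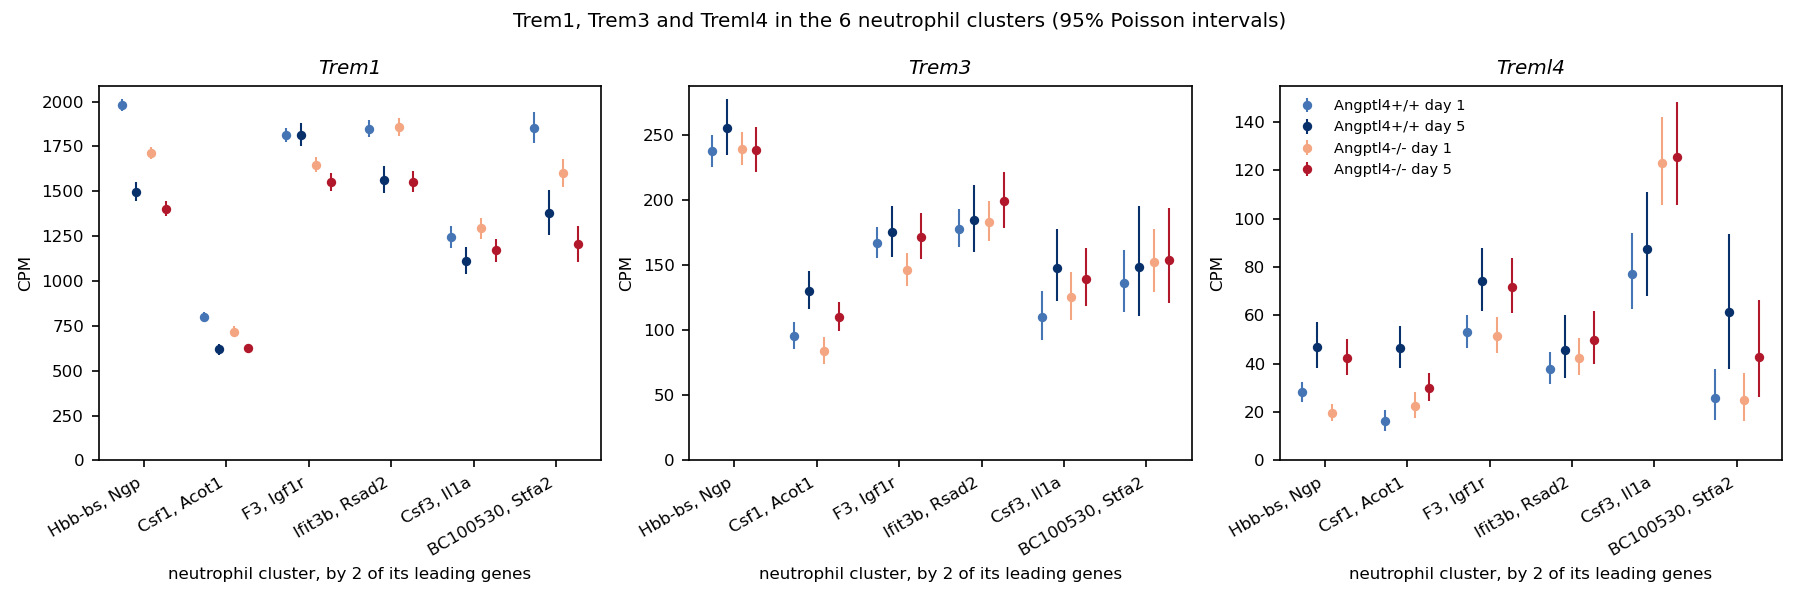
Trem1, Trem3 and Treml4 levels (CPM, axes from 0) in the 6 neutrophil clusters, named by 2 leading genes, with 1 point per library and exact Poisson 95% intervals. The Csf1 cluster was lowest for Trem1 at 619 to 798 CPM, and the Csf3 cluster was highest for Treml4 in each library, at 77.1 to 125 CPM.

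In macrophage-like cells Trem1 was lower than in neutrophils, and higher at 1 than at 5 dpw. Macrophage-like cells had 190.0 CPM (179 to 201) at 1 dpw in WT wounds, and 56.0 CPM (51.4 to 61.0) at 5 dpw. In KO wounds they had 161 CPM (148 to 174) and 62.5 CPM (56.1 to 69.4). The day ratio was -1.76 (-1.91 to -1.61) in WT and -1.36 (-1.56 to -1.17) in KO wounds. The summed level of the 8 neutrophil markers in the same cells went the same way, from 4965 to 1571 CPM in WT and from 6164 to 1948 CPM in KO wounds, with all 8 markers detected in each library. The part of neutrophil RNA in the day ratio was not tested. In NK cell/T cell-like cells Trem1 had 263 and 118 CPM at 1 dpw, from 36 cells in each library, and 28.1 and 22.1 CPM at 5 dpw, and the neutrophil markers there summed to 19945 and 16625 CPM and to 2952 and 2540 CPM. Their part was not tested either. Trem1 in macrophage-like cells stood at 11.5% of its neutrophil level in WT and 10.7% in KO wounds at 1 dpw, above all 7 neutrophil genes compared (up to 6.78% and 9.04%, both Csf3r). At 5 dpw it stood at 4.37% and 5.23%, below Csf3r at 5.73% and 5.70%. The medians of the 7 genes were 2.19% in WT and 2.44% in KO wounds at 1 dpw and 1.19% and 1.76% at 5 dpw. Trem1 was above the median in each library. In monocyte-like cells Trem1 was lower in KO wounds, with 156 against 92.7 CPM at 1 dpw and a ratio of -0.75 (-1.02 to -0.48), and with 120.0 against 90.7 CPM at 5 dpw and a ratio of -0.40 (-0.75 to -0.06). The summed neutrophil markers of the monocyte-like cells were also lower in KO wounds, with 12460 against 8253 CPM at 1 dpw and 10371 against 7116 CPM at 5 dpw, and their part was not tested.

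Both receptors were also counted in the same macrophage-like cells. In cells thinned to 1000 UMIs a Trem1 UMI was seen in 7.32% (3.40 to 13.4) of those with and 14.1% (11.5 to 17.0) of those without a Trem2 UMI in WT wounds at 1 dpw. The values were 4.25% (2.40 to 6.92) and 5.50% (3.96 to 7.42) at 5 dpw. In KO wounds they were 9.09% (2.53 to 21.7) and 13.0% (10.1 to 16.3) at 1 dpw and 1.19% (0.0301 to 6.46) and 7.89% (5.31 to 11.2) at 5 dpw. The share with Trem1 was the lower one among Trem2 cells in all 4 libraries, and the intervals overlapped in each.

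Trem3, the neighbour of Trem1 and another partner of Tyrobp, shared its preference for neutrophils, which held 84.3 to 94.0% of its UMIs. Neutrophil-like cells had 173, 180.3, 171 and 171 CPM in WT wounds at 1 and 5 dpw and in KO wounds at 1 and 5 dpw. The 4 intervals overlapped, from 164 to 189.5 CPM in all, and genotype ratios were -0.02 (-0.09 to 0.05) and -0.08 (-0.17 to 0.02). The cluster led by hemoglobin genes had the highest level in each library, at 237 to 255 CPM. In thinned neutrophil-like cells of WT wounds at 1 dpw, 75.7% (72.0 to 79.2) of those with a Trem3 UMI and 68.0% (66.4 to 69.6) of those without had a Trem1 UMI. The order was the same in the other 3 libraries, with 67.7 against 56.4%, 75.4 against 65.7% and 69.8 against 55.8%.

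By CPM, Trem3 was lower in monocyte-like cells of KO wounds on both days. It had 83.5 CPM (72.1 to 96.1) against 38.7 CPM (30.2 to 48.9) at 1 dpw and 75.5 CPM (61.4 to 91.8) against 36.8 CPM (27.7 to 48.1) at 5 dpw. The ratios were -1.11 (-1.52 to -0.71) and -1.03 (-1.54 to -0.54), and the intervals of the genotypes did not overlap on either day. The 8 neutrophil markers of these cells summed to 12460 CPM in WT and 8253 CPM in KO wounds at 1 dpw, and to 10371 and 7116 CPM at 5 dpw. All 8 were detected in each library, and their part in the ratio was not tested. Trem3 in monocyte-like cells stood at 48.3% and 41.9% of the neutrophil level in WT and at 22.7% and 21.5% in KO wounds at 1 and 5 dpw. The highest of the 7 neutrophil genes compared stood at 20.2% and 14.0% in WT and at 21.9% and 15.1% in KO wounds.

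Treml4, another receptor of myeloid cells, was highest in monocyte-like cells at 5 dpw and in 1 neutrophil cluster. Monocyte-like cells had 37.0 CPM (29.6 to 45.7) at 1 dpw in WT wounds, and 141 CPM (122 to 163) at 5 dpw. In KO wounds they had 41.5 CPM (32.7 to 51.9) and 88.0 CPM (73.5 to 105). The 5 dpw libraries were higher, with ratios of 1.93 (1.56 to 2.32) and 1.09 (0.67 to 1.51), and at 5 dpw the KO library was lower by a ratio of -0.68 (-1.02 to -0.35). Macrophage-like cells had 0.538 to 9.31 CPM. Neutrophil-like cells had 36.3, 56.4, 38.8 and 52.7 CPM in WT wounds at 1 and 5 dpw and in KO wounds at 1 and 5 dpw. In the Csf3 and Il1a cluster the levels were 77.1 and 87.5 CPM in WT and 123 and 125 CPM in KO wounds at 1 and 5 dpw, the highest of the 6 clusters in each library. The genotype ratios of that cluster were 0.67 at 1 dpw and 0.52 at 5 dpw, while the cluster led by Csf1 had -0.62 at 5 dpw and the one led by hemoglobin genes -0.53 at 1 dpw.

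Treml2, a receptor of myeloid cells and B cells that is not known to pair with Tyrobp, was higher in neutrophil-like than in monocyte-like, macrophage-like or dendritic cell-like cells of each library. B cell-like cells had 3, 5, 0 and 10 UMIs of it in WT wounds at 1 and 5 dpw and in KO wounds at 1 and 5 dpw. These few UMIs were 0 to 159 CPM over the libraries, at most above the neutrophil level. Neutrophil-like cells had 61.5 and 63.4 CPM in WT and 55.8 and 52.8 CPM in KO wounds at 1 and 5 dpw. Genotype ratios were -0.14 (-0.26 to -0.02) and -0.26 (-0.43 to -0.10). The interferon cluster had the highest neutrophil levels, at 90.1 to 127 CPM. Macrophage-like cells had 35.1 and 18.6 CPM in WT and 39.0 and 12.2 CPM in KO wounds at 1 and 5 dpw. Both 5 dpw libraries were below both 1 dpw libraries, and at 5 dpw the genotype ratio was -0.61 (-1.03 to -0.20). The Treml2 ratio of the whole monocyte/macrophage class at 5 dpw turned sign after thinning, and no thinned ratio is given for macrophage-like cells alone.

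Tyrobp, the shared adaptor, was detected in nearly all myeloid cells and differed little between genotypes. Neutrophil-like cells had 3623 CPM (3596 to 3649) and 5003 CPM (4956 to 5050.2) in WT wounds at 1 and 5 dpw. In KO wounds they had 3847 CPM (3819 to 3876) and 4642 CPM (4604 to 4679.9). Monocyte-like cells had 3207 to 3407 CPM, macrophage-like cells 1706 to 1924 CPM, dendritic cell-like cells 1585 to 1667 CPM and NK cell/T cell-like cells 740.1 to 1139 CPM. A Tyrobp UMI was found in 95.3 to 100% of the cells of the monocyte, macrophage, neutrophil and dendritic classes. Genotype ratios were 0.05 (0.02 to 0.08) and 0.10 (0.07 to 0.12) in the monocyte/macrophage class and 0.09 (0.07 to 0.10) and -0.11 (-0.13 to -0.09) in neutrophils at 1 and 5 dpw. No sub-cluster of monocytes and macrophages was past the fold, with -0.33 to 0.13 at 1 dpw and -0.08 to 0.11 at 5 dpw. At 1 dpw 5 of the 6 sub-clusters were lower and 1 higher in KO wounds, so most had the opposite sign to the whole class. At 5 dpw 1 was lower and 5 were higher. The Trem2 ratio in the same cells was thus not accompanied by one of like size in its adaptor. Between days Tyrobp was higher at 5 dpw in all 6 neutrophil clusters of both genotypes, with ratios of 0.24 to 0.70 and 0.04 to 0.51. Over all neutrophil-like cells its day ratio was 0.47 in WT and 0.27 in KO wounds. Both were below the median of all genes, 0.65 and 0.68. In the Siglech cluster of dendritic cell-like cells Tyrobp had 2564 against 1895 CPM at 1 dpw and 2277 against 1699.7 CPM at 5 dpw, ratios of -0.44 (-0.61 to -0.26) and -0.42 (-0.53 to -0.32). These rested on 17 WT and 19 KO cells at 1 dpw and on 49 and 51 at 5 dpw.

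Hcst was highest in NK cell/T cell-like cells, with 255 CPM (199 to 322) and 284 CPM (263 to 306) in WT and 215 CPM (165 to 275) and 329.8 CPM (307 to 354) in KO wounds at 1 and 5 dpw. This was 5.87 to 7.55 times the macrophage level of the same library and 1.63 to 2.20 times the neutrophil level. The 2 libraries at 1 dpw rested on 36 cells each, and their intervals overlapped. At 5 dpw the genotype ratio was 0.22 (0.06 to 0.37). Neutrophil-like cells had 116 and 151 CPM in WT and 131 and 168 CPM in KO wounds, with genotype ratios of 0.18 (0.10 to 0.26) and 0.15 (0.05 to 0.25). Over the 24 sums of neutrophil clusters by library, Hcst and Tyrobp had a Pearson correlation of 0.85 and a Spearman correlation of 0.72, and Hcst and Trem3 0.81 and 0.85. These points share libraries, so the values only describe them.

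The other genes of the pathway were taken from lists of its receptors, adaptors, kinases, inhibitors and ligands, and are described for the monocyte/macrophage class first. Of 31 kinase and effector genes 27 had at least 100 UMIs on either day. None was past the fold at 1 dpw, where 2.36% of all genes were higher and 2.86% lower. At 5 dpw 2.35% of all genes were higher and 4.38% lower, and these shares stand beside each list of this class. Of the kinase list only the Src-family gene Fyn was past the fold at 5 dpw, with 42.2 against 59.9 CPM and a ratio of 0.50 (0.33 to 0.68). The median of the list was 0.02 and -0.03, beside 0.01 and -0.01 over all genes. Fcer1g, the other ITAM adaptor with enough UMIs, had ratios of -0.04 (-0.07 to -0.02) and 0.12 (0.09 to 0.14). Of 12 other receptors that use Tyrobp or Hcst 8 were measured, and only Klrk1, which encodes NKG2D, was past the fold, lower on both days. It had 11.6 against 7.07 CPM and 13.4 against 5.65 CPM, with ratios of -0.71 (-1.22 to -0.22) and -1.24 (-1.72 to -0.78). Of 15 inhibitory genes, Siglece was higher at 1 dpw (0.76, 0.42 to 1.10) and the collagen receptor gene Lair1 lower at 5 dpw (-0.71, -0.82 to -0.60). Of 8 ligand and sheddase genes 7 were measured and none was past the fold. Apoe, a Trem2 ligand, had 7214 against 5741 CPM at 5 dpw, and the sheddase gene Adam10 had 186 against 136 CPM.

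Among 21 genes of lipid-associated macrophages, a set often described together with Trem2, 18 were measured at 1 dpw and 19 at 5 dpw. The median ratio was -0.20 and -0.13, beside 0.01 and -0.01 over all genes. At 1 dpw only the tetraspanin gene Cd9 was past the fold, with 771 against 518 CPM and a ratio of -0.57 (-0.63 to -0.52). At 5 dpw 3 were lower, against 4.38% of all genes: the osteopontin gene Spp1 (-0.57, -0.61 to -0.53) and the cathepsin genes Ctsd (-0.60, -0.64 to -0.56) and Ctsl (-0.62, -0.66 to -0.58). The fatty acid binding protein gene Fabp4 was higher (0.51, 0.22 to 0.79), against 2.35% of all genes. Of 12 inflammatory genes known downstream of Trem1, 1 of 11 was lower at 1 dpw, Tnf with -0.50 (-0.64 to -0.36), and the median was -0.31. At 5 dpw 5 of 12 were higher, against 2.35% of all genes, and none lower, against 4.38%, with a median of 0.38. They were Cxcl3 at 163 against 334 CPM (1.03, 0.95 to 1.11), Ccl4 at 204 against 334 CPM (0.71, 0.64 to 0.79), Ccl7 (0.53, 0.45 to 0.61), Il1a (0.53, 0.13 to 0.93) and Cxcl2 (0.51), the last named after its value was seen. Between days the same list was lower at 5 dpw for 11 of 12 genes in WT and 10 of 11 in KO wounds, against 9.51% and 9.78% of all genes, with medians of -1.46 and -1.01. The list ratios cover the whole monocyte/macrophage class, and its cells differed in neutrophil markers. In macrophage-like cells these were higher in KO wounds, with 4965 against 6164 CPM at 1 dpw and 1571 against 1948 CPM at 5 dpw. In monocyte-like cells they were lower in KO wounds, with 12460 against 8253 CPM at 1 dpw and 10371 against 7116 CPM at 5 dpw. Between days the markers were lower at 5 dpw in both kinds of cells and both genotypes. Their part was not tested.

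In neutrophil-like cells few list genes were past the fold between genotypes, and few of all genes were. Of all genes tested 1.39% were higher and 5.77% lower at 1 dpw, and 2.57% and 6.03% at 5 dpw. None of 7 other receptors was, on either day, and of the kinases only Tec was, with 29.0 against 51.0 CPM and a ratio of 0.82 (0.60 to 1.03) at 5 dpw. Syk, the kinase recruited by Tyrobp, had 430.4 against 522 CPM and a ratio of 0.28 (0.22 to 0.34) at 5 dpw. The adaptor gene Dok1 was lower at 5 dpw (-0.60, -1.04 to -0.17). Apoe was lower at 1 dpw (-0.60, -0.86 to -0.34) and the lysosomal protease gene Lgmn at 5 dpw (-0.64, -0.95 to -0.34). The chemokine gene Ccl2 was lower on both days (-0.83, -1.22 to -0.45, and -0.74, -0.92 to -0.56), at no more than 63.5 CPM. The 8 macrophage markers in neutrophil-like cells summed to 32.2 CPM in WT and 29.0 CPM in KO wounds at 1 dpw and to 80.7 and 51.2 CPM at 5 dpw, with all 8 detected in each library, and their part in the Apoe, Lgmn and Ccl2 ratios was not tested.

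The genes whose level was most like that of Trem2, Trem1 and Tyrobp were sought over 26 sums of class by library, among 8723 genes with at least 500 UMIs. By Pearson correlation of log2(CPM + 1), Trem2 was most like Itgb5 (0.96), Rrbp1 (0.95), Itm2b (0.95), Lrp1 (0.94) and Dpep2 (0.94). Trem1 was most like Upp1, Slc27a4, Map1lc3b, Ndel1 and Arg2 (0.94 to 0.95), and Tyrobp most like Rasgrp4, Cebpd, Arl11, Fam217b and Igsf6 (0.96 to 0.97). Within the monocyte/macrophage class, over 24 sub-cluster sums, Trem2 was most like F11r (0.84), Tspan4 (0.80), Ly9 (0.79), Plod1 (0.79) and Fam213b (0.79). Over the 24 neutrophil sums the gene A530064D06Rik, which lies 197 kb before Trem2, was among the 5 most like Trem1 (0.93). The sums share libraries and depth, and the values are a description.

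Other genes in and around the Trem cluster had smaller genotype ratios than Trem2. Trem2 had drawn attention by that ratio, so nothing is read from this order. In the cluster and within 500 kb of it 5 further genes at 1 dpw and 6 at 5 dpw had at least 100 UMIs in the monocyte/macrophage class. Their genotype ratios ran from -0.13 to 0.21 at 1 dpw and from -0.30 to -0.04 at 5 dpw, and none was past the fold. Over all genes tested 2.36% were higher and 2.86% lower at 1 dpw, and 2.35% and 4.38% at 5 dpw. With so few genes, none past the fold is close to these shares, and nothing is read from it. The nearest, B430306N03Rik, which lies between Treml2 and Trem2 and starts 30.3 kb before Trem2, and Nfya at 40.5 kb after its start, had 0.17 and -0.08 at 1 dpw and -0.24 and -0.12 at 5 dpw. Of the other receptor genes Trem1 had -0.40 (-0.51 to -0.30) and 0.09 (-0.06 to 0.23), Trem3 -0.71 (-0.97 to -0.45) and -0.19 (-0.51 to 0.12), Treml4 0.03 (-0.39 to 0.44) and 0.02 (-0.24 to 0.28), and Treml2 0.06 (-0.19 to 0.32) and -0.69 (-1.05 to -0.35). Treml1, a gene of platelets and megakaryocytes, had 25 UMIs in all cells and was not compared. Around Tyrobp and Hcst, the 16 neighbours measured at 1 dpw ran from -0.59 to 0.81, with 2 past the fold. The 18 measured at 5 dpw ran from -0.39 to 0.24, with none past it. The shares over all genes given above stand beside these counts too.

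**Figure D5:**
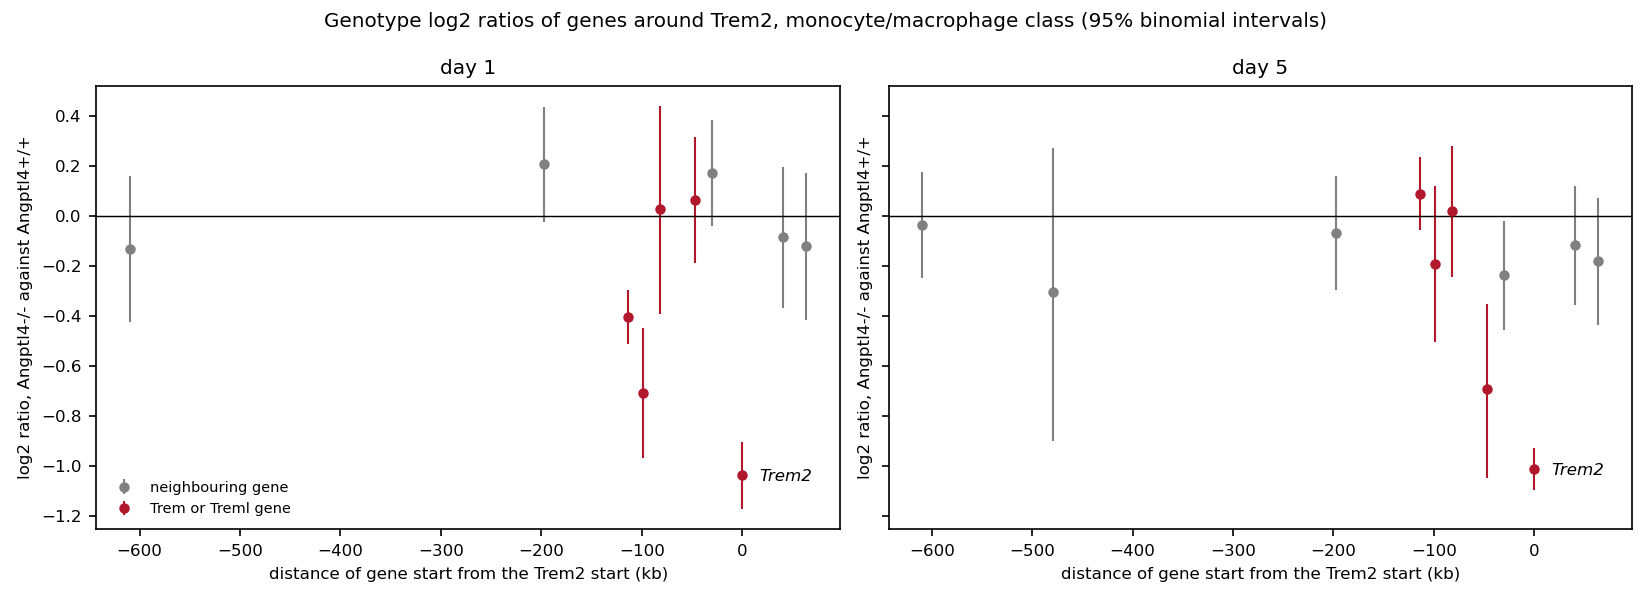
Genotype log2 ratios (Angptl4-/- against Angptl4+/+, exact 95% intervals) in the monocyte/macrophage class for genes around Trem2, against the distance of each gene's start from the Trem2 start in kb. Red points are Trem and Treml genes and grey points their neighbours, and Trem2 lies at -1.04 at 1 dpw and -1.01 at 5 dpw, below each of the others.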

How the data were processed

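The authors made each library with the 10x Genomics 3′ chemistry and, per the labels, aligned and counted it with Cell Ranger (3.1.0) against mm10, and they used Seurat (3.0) downstream. The deposited values are raw UMI counts per gene and barcode, not normalized, in 4 libraries with the same 31053 genes. Cells with at least 200 genes and at most 10% mitochondrial UMIs were kept. The libraries were joined with Seurat (5.3.0) anchors on 2000 variable genes and 30 dimensions and clustered by the Louvain method at resolution 0.5. The variable genes did not include the 7 members or 18 genes named by the study. Names were given to clusters by the highest marker score among lists with at least 3 markers at 50 CPM or more, a limit set after seeing the data, and monocyte and macrophage clusters were clustered again. Doublets were kept. No difference was tested, because a group is 1 library. The ratio intervals were tested on simulated counts.

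The members, gene lists and comparisons were chosen with earlier results of these data known. All 7 members are named. From each list up to 4 genes with the largest ratios, and the 5 genes most like a member, are named. Gene positions are from GENCODE M21, in which 30934 of 31053 gene IDs were found, and promoter windows from RefSeq (GRCm38.p6). Alternatives were a stricter cell filter, removal of doublet-scored cells or shared barcodes, no integration, resolution 1.0, means over cells, another total, centring on the median of all genes and thinning to 1000 UMIs. Alternatives by cluster were added after seeing the data. Total depth per library and 95% intervals set the precision, for counting error only.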

Additional observations from a re-analysis of the deposited data

Results flagged for a closer look

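The Tyrobp genotype ratio in neutrophil-like cells had opposite signs on the 2 days, 0.087 at 1 dpw and -0.11 at 5 dpw, with both intervals off 0. At 5 dpw it also had opposite signs in neutrophil-like cells, at -0.11, and in the monocyte/macrophage class, at 0.10. These differences between days and between classes were not tested, because each group is 1 library, and all are below the fold of 0.5 used elsewhere. In neutrophils the sign was positive in 6 of 6 clusters at 1 dpw and negative in 5 of 6 at 5 dpw. The median ratio of all genes was -0.09 and -0.07 in neutrophils and -0.01 in the monocyte/macrophage class at 5 dpw.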

How the results depend on the processing

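The 8 ratios of Trem2 in the monocyte/macrophage class and of Trem1 in neutrophils kept their sign under each of 90 alternative values, of which 76 lay within the counting interval of the reported value. The Trem2 genotype ratio ran from -1.17 to -1.01 at 1 dpw and from -1.14 to -0.87 at 5 dpw. At 5 dpw it was -1.14 after thinning to 1000 UMIs, -1.12 as a mean over cells and -0.87 in macrophage-like cells alone. The Trem2 day ratio averaged within sub-clusters was 0.81 in both genotypes. Less the median of all genes, the Trem1 genotype ratio in neutrophils was -0.046 at 1 dpw and -0.034 at 5 dpw, and its day ratio was -1.02 in both genotypes. Thinned, the Trem1 genotype ratio at 5 dpw was -0.059. Averaged within clusters the Trem1 day ratio was -0.26 in WT and -0.21 in KO wounds. Without the hemoglobin-led cluster it was -0.32 in WT wounds, and the genotype ratio at 1 dpw was -0.10. The other 44 ratios were those of the other members and of Trem1 in the monocyte/macrophage class. Of their 484 alternative values, 411 lay within the interval, 70 moved and 3 turned sign. Thinned to 1000 UMIs, the genotype ratio in the monocyte/macrophage class was 0.21 for Trem3 at 1 dpw and 0.32 for Treml2 at 5 dpw, from few UMIs. Less the median of all genes, the Treml4 day ratio in WT neutrophils was -0.0115. The cause was not tested.

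Counts of genes past the fold depended on the limits set. With at least 20 instead of 100 UMIs the monocyte/macrophage class had 1207 instead of 436 genes past it between genotypes at 1 dpw and 1489 instead of 605 at 5 dpw, and at a log2 ratio of 1 it had 52 and 87. In neutrophils the same counts were 1502 instead of 463 and 1685 instead of 576, and 62 and 68. Between days they were 3356 instead of 2145 and 2819 instead of 1668 in the monocyte/macrophage class, with 574 and 381 at a log2 ratio of 1. In neutrophils they were 6514 instead of 4252 and 6624 instead of 4382, with 2130 and 2302. Thinning lowered shares of cells with a UMI, of macrophage-like cells for Trem2 to 8.54 to 32.7% and of neutrophil-like cells for Trem1 to 58.0 to 69.1%. Of the 5 genes most like a member, a Spearman correlation shared 1 for Trem2, 3 for Trem1 and 1 for Tyrobp. No paired analysis was possible because each group is 1 library, and no replicate could be left out.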
